A study of Bos taurus with 79 samples.

Results

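The genes described here encode the machinery of mitosis and chromosome segregation: kinases that start mitosis, the chromosomal passenger complex, kinetochore and checkpoint proteins, spindle proteins and motors, condensin and cohesin regulators, the ubiquitin ligase that ends mitosis, and cytokinesis proteins. They were followed in the endometrium, the inner lining of the uterus, of beef heifers. Members were taken by gene symbol, with no cutoff on measured values. Earlier results of these data were known when they were chosen. Of 58 symbols, 39 genes had at least 1 probe set annotated to that symbol alone, among 9155 named genes on the array, and these 39 genes had 62 probe sets. The other 19 had no such probe set and are not described further: TOP2A, KIF11, CENPE, CENPK, NUF2, SPC25, TTK, MKI67, PRC1, RACGAP1, ANLN, CEP55, DLGAP5, PBK, CDCA5, PTTG1, INCENP, SMC2 and CDC25B.

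A dividing cell makes most of these transcripts only in the last phases of the cell cycle and destroys many of the proteins as it divides, so a resting tissue holds little of them. In mitosis CDK1 with its cyclins condenses the chromosomes, kinetochores attach them to the spindle, the checkpoint holds the cell until all are attached, and the anaphase-promoting ubiquitin ligase then releases the sister chromatids. The endometrium of the cow grows and differentiates under ovarian steroids, and progesterone from the corpus luteum rises over the first week after estrus.

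The study used 79 arrays of cross-bred beef heifers, 1 array per sample, after estrus had been synchronized. The heifers were cyclic, meaning not inseminated, or inseminated and found pregnant, and tissue was taken at slaughter on days 5, 7, 13 and 16. In the groups with high progesterone an intravaginal device had released progesterone from day 3 until slaughter, and the other groups carried none. The group names PH, PN, CH and CN give status (P pregnant, C cyclic) and progesterone (H high, N normal), and an array is named by group and replicate number. Each of the 16 groups of day and treatment had 5 arrays, except CH on day 7 with 4, which are numbered 2 to 5. Values listed for a group follow the replicate numbers. The labels call the samples of a group biological replicates and name no individual animals.

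Values are the deposited log2 expression values, in which a difference of 1 is a doubling. Array medians lay between 4.71 and 5.12. The scale is compressed at its low end: 32.2% of all probe sets had a mean under 3 over all arrays, and so did 6 of the 39 mitosis genes, so that differences into that range are understated. The stroma markers averaged between 10.61 and 11.46 on every array and the epithelial markers between 7.17 and 8.43, with KRT8 of the 11 epithelial markers under 3 in every group. Arrays PN 4 of day 5, PH 5 of day 7 and PH 4 of day 13 were high in smooth muscle markers, with means of 11.93, 11.64 and 12.86 against at most 9.95 on any other array. CH 3 of day 5 was the highest array in B and plasma cell (7.96), T and NK cell (6.35), macrophage (10.14) and general leukocyte (10.49) markers, where no other array exceeded 5.53, 4.65, 7.92 and 7.77. The 5 arrays that stood apart from their groups over all probe sets were CH 3 of day 5, CH 3 and CN 5 of day 7, and PH 1 and PH 4 of day 13. The tissue was analysed in bulk, so fewer dividing cells and less RNA per cell cannot be told apart.

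The mitosis genes were high on day 5, intermediate and variable on day 7, and low on days 13 and 16. The mean over the 39 genes was 6.0 ± 0.83 in PH, 6.10 ± 0.73 in PN, 6.37 ± 0.71 in CH and 6.06 ± 0.38 in CN on day 5 (SD, n = 5 each). On day 7 it was 4.52 ± 0.58 in PH and 5.26 ± 0.71 in PN (n = 5 each), and 4.23 ± 0.33 in CH (n = 4) and 5.72 ± 1.13 in CN (n = 5). All 8 groups of days 13 and 16 had means between 3.87 and 3.99, with SDs of 0.03 to 0.09. The count of genes with a group mean under 3 was 2 to 4 on day 5, between 3 in CN and 14 in CH on day 7, and 17 to 19 on days 13 and 16.

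**Figure D1:**
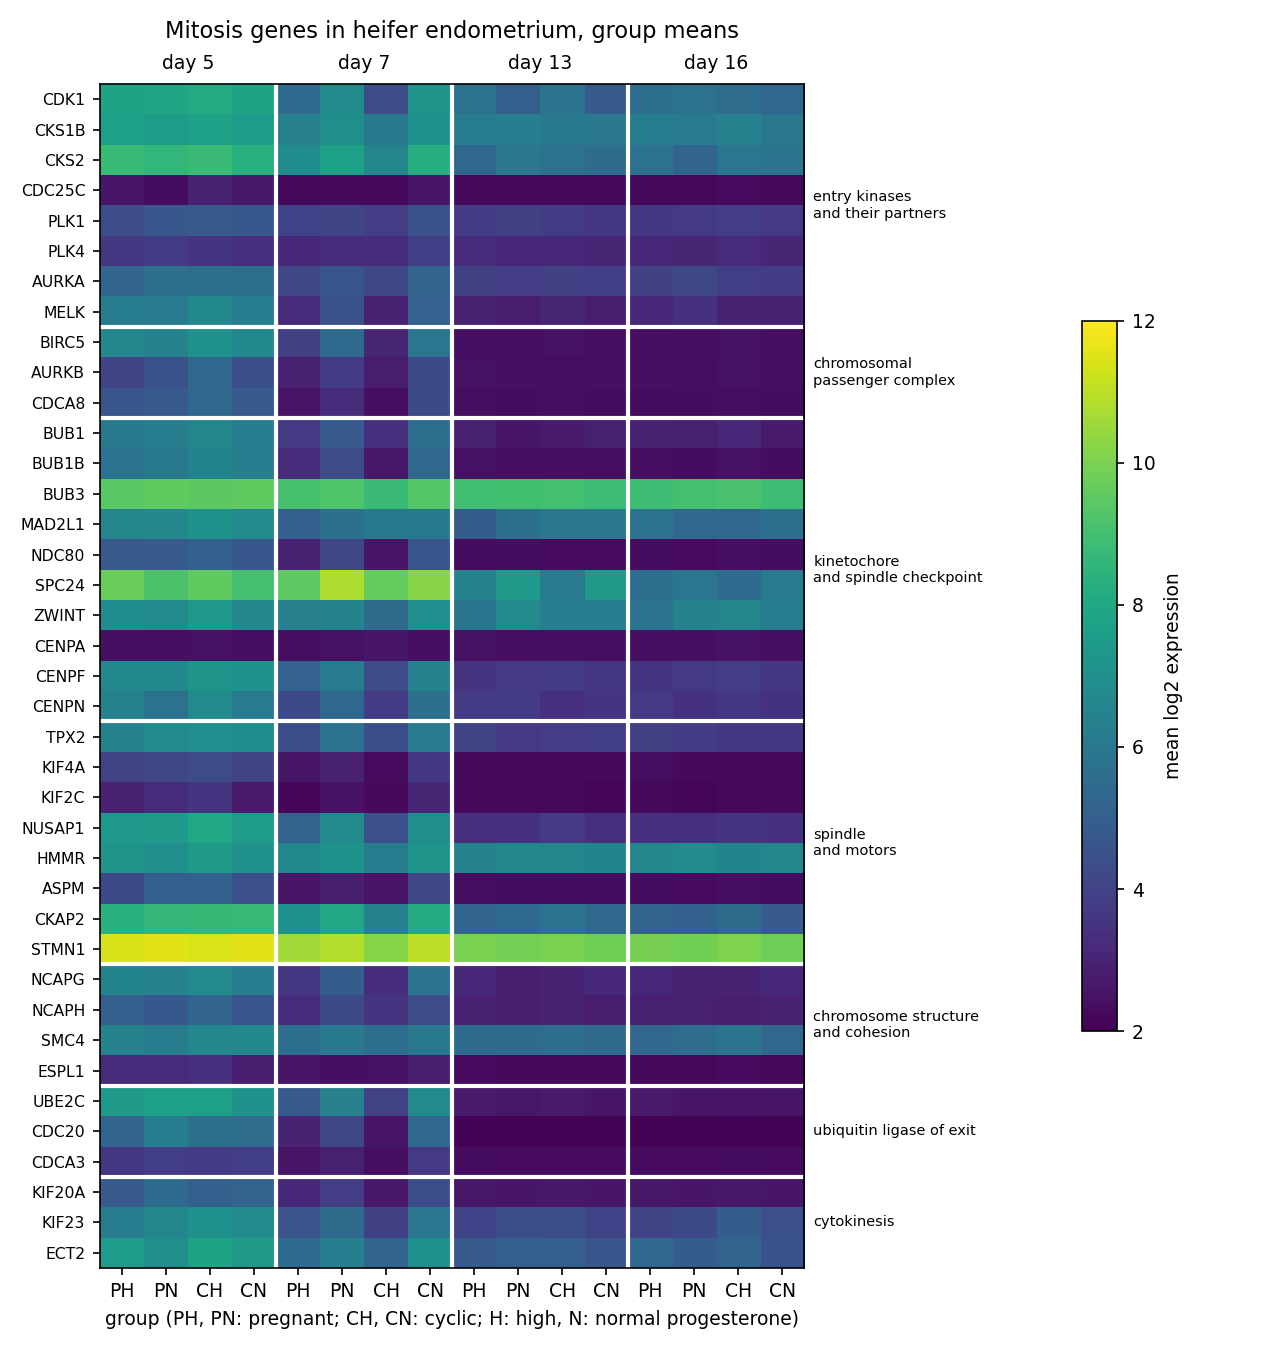
Mean log2 expression (colour) of the 39 mitosis genes (rows, by role) in the 16 groups (columns, by day, then PH, PN, CH and CN; n = 5 arrays, 4 in CH on day 7). Most rows are brightest on day 5 and dark on days 13 and 16, and on day 7 the PH and CH columns are darker than PN and CN; SPC24 stays bright on day 7, and CENPA is dark throughout.

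**Figure D2:**
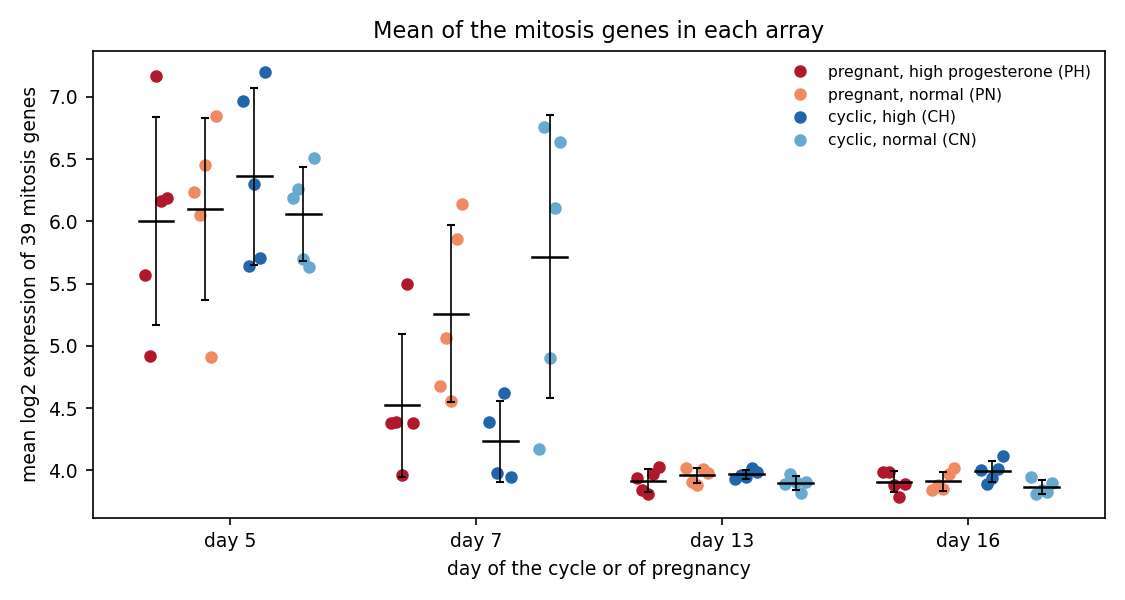
Mean log2 expression of the 39 mitosis genes in each array (points), with the mean and SD of each group (bars), by day. On days 13 and 16 the groups sit between 3.87 and 3.99, while on day 7 CN spans 4.17 to 6.76 and CH 3.95 to 4.62.

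From day 5 to day 7, averaged over the 4 treatment groups, 35 of the 39 genes were lower and 1, SPC24, was higher (limma with Benjamini-Hochberg adjustment over all probe sets, called at an adjusted p under 0.05). Among all 9155 genes 28.9% were called in this comparison, 19.5% lower and 9.42% higher. The median difference, day 7 minus day 5, was -1.23 over the mitosis genes and -0.02 over all genes. The 3 genes not called were ZWINT, PLK4 and CENPA. By role, genes of the passenger complex (3 of 3), spindle and motors (8 of 8), chromosome structure (4 of 4) and cytokinesis (3 of 3) fell. UBE2C and CDC20 of the ubiquitin ligase fell as well, with CDCA3, which is grouped with them (3 of 3). So did 7 of 8 entry kinases and their partners and 7 of 10 kinetochore and checkpoint genes.

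The largest falls to day 7 were in MELK, a kinase of dividing and progenitor cells, at -2.39 ± 0.27 (SE, adjusted p = 5.73e-10), BUB1B, a checkpoint protein, at -2.29 ± 0.29, and BIRC5, the survivin subunit of the passenger complex, at -2.11 ± 0.30. NCAPG, a condensin subunit, fell by 2.07 ± 0.21, which is 4.2-fold. CDK1, the kinase that drives entry into mitosis, averaged 6.03 ± 1.67 on day 7 (n = 19), against 7.91 ± 0.73 on day 5 (SD, n = 20), and fell by 1.96 ± 0.30. Small falls that passed the test were those of BUB3, a checkpoint protein, at -0.38 ± 0.07, HMMR, a spindle protein and hyaluronan receptor, at -0.36 ± 0.14, and CDC25C, the phosphatase that activates CDK1, at -0.29 ± 0.10. The calls of HMMR, CDC25C and SPC24 were each lost when some single arrays were left out and when days 5 and 7 were fitted alone.

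From day 7 to day 13, 29 genes were lower and 0 higher, against 45.7% of all genes called and 26.2% called lower, with a median difference of -0.78 over the mitosis genes and -0.02 over all genes. UBE2C, the ubiquitin-conjugating enzyme of the anaphase-promoting complex, had 2.43, 2.71 and 2.92 as lowest, median and highest values on day 13, against 2.76, 5.26 and 8.30 on day 7. It fell by 2.80 ± 0.31 (adjusted p = 9.09e-12), or 6.96-fold. The ranges overlapped slightly, and all day 13 values lay near the low end of the scale. Every day 13 array below every day 7 array was seen in 0 of the 39 genes, against 0.896% of all genes, and every day 7 array below every day 5 array in 0 (0%).

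NUSAP1, a protein that bundles spindle microtubules, fell by 2.36 ± 0.27 to day 13, and BIRC5 by 2.17 ± 0.30. CKAP2, another spindle protein, fell by 1.98 ± 0.22, and CENPF, a kinetochore protein of late interphase and mitosis, by 1.87 ± 0.25. CDC20, the activator of the anaphase-promoting complex, fell by 1.69 ± 0.31 to 2.07 ± 0.03 on day 13 (n = 20), against 3.83 ± 1.75 on day 7 (SD, n = 19). CKS2, a small CDK1-binding protein, fell by 1.68 ± 0.22 to 5.65 ± 0.58 on day 13, against 7.37 ± 1.12 on day 7. The 10 genes not called included CDK1, at -0.58 ± 0.30 (adjusted p = 0.126), SMC4, the core ATPase of condensin, at -0.29 ± 0.12 (0.0594), and MAD2L1 and ZWINT, at -0.05 ± 0.21 and 0.02 ± 0.26.

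From day 13 to day 16 only SPC24 of the 39 genes was called, against 11.7% of all genes called and 4.4% called lower, and the median difference was 0.00, beside 0.01 over all genes. The 95% interval lay within 1 on either side of 0 for 38 of the 39.

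Day 13 and day 5 were further apart. Every array of day 13 lay below every array of day 5 (20 against 20) in 18 of the 39 genes, against 4.37% of all genes. The 18 were CKS2, MELK, BIRC5, CDCA8, BUB1, BUB1B, BUB3, NDC80, CENPF, TPX2, KIF4A, NUSAP1, CKAP2, STMN1, NCAPG, UBE2C, CDC20 and ECT2. STMN1, which encodes a protein that destabilizes microtubules, had 9.30, 9.94 and 10.53 as lowest, median and highest values on day 13, against 10.74, 11.47 and 11.99 on day 5. ECT2, the exchange factor that starts the cleavage furrow, had 4.36, 4.95 and 5.36 on day 13, against 5.85, 7.38 and 8.62 on day 5. AURKB, the kinase of the passenger complex, is not among the 18: it had at most 2.51 on day 13, and PH 2 of day 5 had 2.47.

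Counts of called genes within each treatment group are given next. In CH 34 genes were lower on day 7 than on day 5 (19.4% of all genes were called in that comparison, 13.5% lower) and 2 on day 13 than on day 7 (28% and 14.3%). Those 2 were SPC24 and CENPA, and CENPA lay at the low end of the scale. In PH the counts were 24 (7.76% and 6.01%) and 6 (18.6% and 12.9%). In PN 6 genes were lower and SPC24 higher on day 7 than on day 5 (7.2% of all genes called, 4.46% lower and 2.74% higher), and 21 were lower on day 13 than on day 7 (24.4% and 15.3%). In CN 0 genes were called from day 5 to day 7 by limma, where 0.0218% of all genes were called. There 6 mitosis genes had an unadjusted p under 0.05, as had 1891 of all 24016 probe sets. From day 7 to day 13, 32 mitosis genes were lower in CN (21.7% and 12.9%).

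Expressed per gene as the share of the fall between days 5 and 13 that was present by day 7, the median was 77.0% in PH (29 genes with a fall over 1), 39.3% in PN (29), 89.5% in CH (34) and 17.8% in CN (30). Every day 7 array lay below every day 5 array in 7 genes in PH, 0 in PN, 29 in CH and 0 in CN, where the background over all genes was 7.21%, 5.06%, 8.56% and 0.448%. Every day 13 array lay below every day 7 array in 2 genes in PH, 20 in PN, 3 in CH and 18 in CN, with backgrounds of 8.55%, 13.7%, 8.29% and 9.35%. Neither the counts nor the shares were tested between groups. Single arrays moved several of the counts: from day 5 to day 7 the PN count ran from 1 to 14 and the PH count from 11 to 28 when 1 array was left out, and from day 7 to day 13 the PN count ran from 12 to 22, the PH count from 2 to 8 and the CH count from 1 to 3.

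The fit gave each probe set 1 spread over all days, while the mean of the mitosis genes had SDs of 0.33 to 1.13 on days 5 and 7 and of 0.03 to 0.09 later. In fits restricted to the days compared, 32 genes were called from day 5 to day 7 and 30 from day 7 to day 13 on average over the groups. In single groups from day 5 to day 7 the counts were then 28 in CH, 6 in PH, 0 in PN and 0 in CN. Of all 24016 probe sets these fits called 4378 and 8823 averaged over groups, against 4962 and 8857 in the fit of all days. For the single groups, in the same order, the counts were 2287, 556, 365 and 1, against 3650, 1169, 1155 and 7. Several markers of other cells moved with the fall to day 7: 8 of 9 macrophage markers and 3 of 5 leukocyte markers were lower on day 7 than on day 5, with medians of -0.74 and -0.65, as were 5 of 10 stroma markers, beside 19.5% of all genes, and 3 of 11 epithelial markers were lower and 3 higher. CH 3 of day 5, high in leukocyte markers, enters these day 5 levels. From day 7 to day 13 6 of 7 endothelial markers were higher, with a median of 0.43, where 45.7% of all genes were called in either direction. Of all 24016 probe sets 4517 were called higher in that comparison. The part of these markers in the fall of the mitosis genes was not tested.

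On day 7 high progesterone went with lower levels of the mitosis genes. Averaged over pregnant and cyclic heifers, 23 of the 39 genes were lower and 0 higher with high progesterone, against 6.68% of all genes called and 4.52% called lower, and the median difference was -1.13 over the mitosis genes and -0.01 over all genes. The estimate was below 0 in 38 of 39 genes. No gene separated the 9 arrays with high progesterone from the 10 with normal progesterone completely (0.12% of all genes lay fully lower).

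The spread sets a limit to this result. In a fit of the day 7 arrays alone, the median SE of the 39 genes was 0.431, against 0.313 in the fit of all days. With day 7 alone 0 of the 39 genes were called (lowest adjusted p = 0.0714, limma) and 31 had an unadjusted p under 0.05. Of all 24016 probe sets 223 were then called and 3298 had an unadjusted p under 0.05. Without the arrays that stood apart the count in the fit of all days was 15, of which 14 were among the 23.

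BIRC5 (gene ID 414925) had 3.81, 3.59, 2.42, 6.10 and 3.59 in PH, against 5.13, 5.15, 3.19, 6.83 and 6.79 in PN. In cyclic heifers it had 3.70, 2.58, 3.61 and 2.36 in CH, against 2.53, 7.94, 5.09, 7.30 and 6.86 in CN. Array 4 was the high one in PH and array 1 the low one in CN. The groups overlapped in both statuses, in pregnant heifers through PH 4 and PN 3 and in cyclic heifers through CN 1. The difference, high minus normal progesterone, was -2.20 ± 0.44 (SE, adjusted p = 0.000713), a 4.59-fold lower level.

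AURKB, the partner kinase of BIRC5, had 2.88, 2.90, 2.48, 3.79 and 2.48 in PH, against 2.52, 3.37, 3.45, 4.25 and 5.32 in PN. It had 2.91, 2.57, 3.33 and 2.34 in CH, against 2.45, 5.91, 3.00, 5.08 and 4.49 in CN. Most arrays with high progesterone were near the low end of the scale, and the groups overlapped. The difference was -1.13 ± 0.35 (adjusted p = 0.0425), and the call was lost in 11 of 19 omissions of a single day 7 array. CDCA8, the passenger subunit borealin, was lower by -1.27 ± 0.31 (0.00626).

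NCAPG (gene ID 531234) had 3.73, 3.19, 2.91, 4.86 and 3.31 in PH, against 3.40, 4.67, 4.29, 6.22 and 6.21 in PN. It had 3.23, 3.45, 3.37 and 3.14 in CH, against 3.54, 6.79, 4.74, 6.26 and 7.44 in CN. All arrays of CH lay below all arrays of CN, as was also the case for ZWINT (2 of 39 genes, against 2.02% of all genes), the closest pair being 3.45 in CH 3 and 3.54 in CN 1, while PH and PN overlapped. The difference of -1.91 ± 0.31 had the lowest adjusted p of the 39 genes, 2.5e-05. The other condensin subunits were not called: NCAPH differed by -0.90 ± 0.34 (adjusted p = 0.118) and SMC4 by -0.44 ± 0.18 (0.158).

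SMC4 had 5.47, 5.38, 5.37, 6.24 and 5.54 in PH, against 5.79, 5.82, 5.81, 6.42 and 6.31 in PN, and the groups overlapped only through array 4 of PH. It had 5.47, 5.63, 5.77 and 5.52 in CH, against 4.64, 6.91, 5.61, 6.18 and 6.90 in CN, where array 1 was below all of CH.

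UBE2C (gene ID 506962) had 3.81, 5.25, 2.85, 7.08 and 5.21 in PH, against 5.71, 6.04, 4.28, 7.99 and 7.81 in PN. It had 4.76, 2.91, 5.26 and 2.76 in CH, against 3.75, 8.30, 5.62, 8.17 and 8.10 in CN. Again PH 4 was high and CN 1 low for their groups. The difference was -2.20 ± 0.44 (adjusted p = 0.00083). CDC20 had 2.72, 3.13, 2.06, 5.04 and 2.09 in PH, against 2.15, 3.67, 3.26, 5.68 and 6.0 in PN. It had 3.17, 2.34, 2.69 and 2.05 in CH, against 2.13, 7.09, 4.60, 6.26 and 6.55 in CN, and differed by -1.95 ± 0.45 (adjusted p = 0.00375). CDCA3, grouped here with these ligase genes, is a trigger of entry into mitosis that is itself degraded at its end. It differed by -0.79 ± 0.28 and was not called (0.0833).

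**Figure D3:**
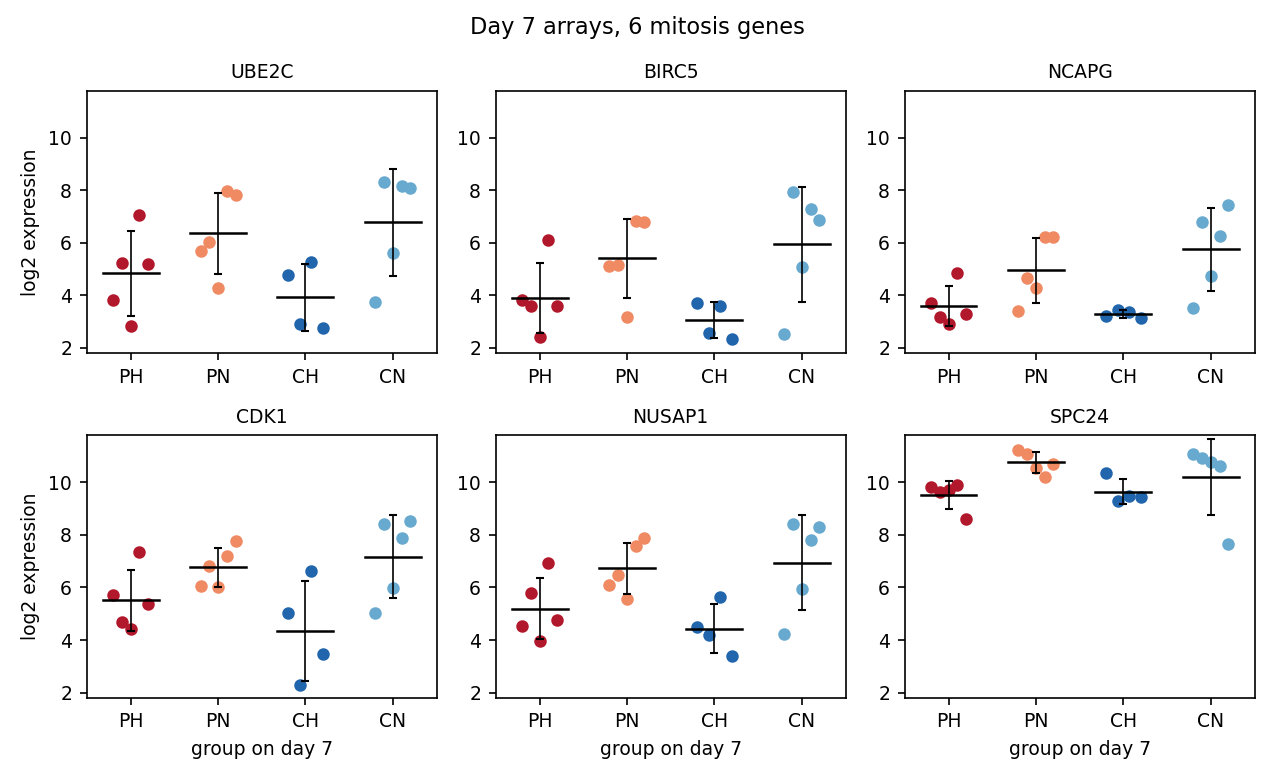
Log2 expression of 6 mitosis genes in each array of day 7 (points) in PH, PN, CH and CN, with group mean and SD (bars); the genes were picked for the plot after their values were seen. For UBE2C, BIRC5, NCAPG, CDK1 and NUSAP1 the PH and CH arrays are mostly low and PN and CN spread widely, with CN 1 low, and SPC24 is high in most arrays of all groups, with CN 5 at 7.65.

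Of the 8 measured entry kinases and partners, 4 were lower with high progesterone on day 7. CDK1 averaged 4.99 ± 1.54 with high progesterone (n = 9) and 6.96 ± 1.19 with normal progesterone (SD, n = 10), a fitted difference of -2.04 ± 0.43 (adjusted p = 0.00129), and MELK differed by -1.78 ± 0.38 (0.00185). CKS2 had 6.35, 7.01, 5.68, 7.87 and 7.38 in PH, against 7.30, 7.77, 6.51, 8.48 and 8.41 in PN. It had 7.14, 5.06, 7.55 and 6.49 in CH, against 6.83, 9.20, 7.12, 8.68 and 9.26 in CN. The groups overlapped, and CKS2 differed by -1.25 ± 0.31 (adjusted p = 0.00998).

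CKS1B, its paralogue, which also serves in the degradation of a CDK inhibitor, had 6.46, 6.02, 6.08, 6.57 and 6.60 in PH, against 6.86, 6.95, 6.45, 6.90 and 7.75 in PN. It had 6.31, 5.60, 6.66 and 5.57 in CH, against 6.22, 7.65, 6.45, 7.00 and 7.72 in CN. The overlap was narrow in pregnant heifers, and the difference was -0.81 ± 0.18 (adjusted p = 0.00341). AURKA, the kinase of spindle poles, differed by -0.77 ± 0.28 and PLK1, a kinase of many mitotic steps, by -0.38 ± 0.20, and neither was called (adjusted p = 0.0995 and 0.317). PLK4, which starts centriole duplication, and CDC25C were not called either.

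At the kinetochore and checkpoint 6 of 10 genes were lower with high progesterone. BUB1B differed by -1.88 ± 0.41, BUB1, a checkpoint kinase, by -1.71 ± 0.35, and NDC80, the microtubule-binding kinetochore subunit, by -1.57 ± 0.38. CENPF and CENPN, the second of which binds centromeric nucleosomes, differed by -1.55 ± 0.36 and -1.54 ± 0.36. BUB3 had 8.99, 9.07, 8.96, 9.36 and 9.10 in PH, against 9.24, 9.10, 9.31, 9.11 and 9.53 in PN. It had 9.22, 8.62, 8.95 and 8.45 in CH, against 8.97, 9.42, 8.93, 9.38 and 9.92 in CN. All groups overlapped, and the small difference of -0.34 ± 0.10 was called (adjusted p = 0.0235). ZWINT, MAD2L1, CENPA and SPC24 were not called.

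In the spindle group 4 of 8 were lower: NUSAP1 by -2.03 ± 0.38 (adjusted p = 0.000363), TPX2, which activates AURKA at the spindle, by -1.51 ± 0.31, CKAP2 by -1.32 ± 0.31 and HMMR by -0.71 ± 0.19. HMMR had 6.89, 6.43, 6.39, 6.87 and 6.76 in PH, against 7.08, 7.13, 6.63, 7.55 and 7.09 in PN. It had 6.43, 5.26, 6.78 and 6.32 in CH, against 5.84, 8.0, 6.89, 7.64 and 7.54 in CN. CN 1 was the lowest of its group and lay within CH. STMN1 had 10.42, 10.33, 10.02, 11.15 and 11.06 in PH, against 10.88, 10.71, 10.07, 11.02 and 11.54 in PN. It had 10.38, 9.75, 10.60 and 9.98 in CH, against 10.19, 11.48, 10.31, 11.18 and 11.85 in CN. The groups overlapped in both statuses, and the difference of -0.54 ± 0.18 was not called (adjusted p = 0.0618). Not called either were ASPM, a spindle pole protein, and the kinesins KIF4A and KIF2C.

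All 3 cytokinesis genes were lower. ECT2 had 5.55, 5.28, 4.56, 6.75 and 5.31 in PH, against 5.52, 6.15, 5.36, 7.29 and 7.35 in PN. It had 5.66, 4.85, 6.14 and 4.30 in CH, against 5.07, 8.19, 5.86, 7.00 and 8.91 in CN. The groups overlapped, and ECT2 differed by -1.30 ± 0.31 (adjusted p = 0.0061). KIF23, a kinesin of the central spindle, had 3.88, 4.67, 3.77, 6.09 and 4.44 in PH, against 4.52, 5.28, 4.52, 6.45 and 6.54 in PN. It had 4.08, 3.51, 4.66 and 3.30 in CH, against 3.69, 7.15, 4.88, 6.47 and 7.37 in CN, and differed by -1.46 ± 0.35 (adjusted p = 0.00683). KIF20A, a kinesin of the same structure, differed by -1.19 ± 0.35 (0.0318), a call lost in 9 of 19 omissions of a day 7 array.

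In cyclic heifers alone 23 genes were lower with high progesterone on day 7 (4.72% of all genes called and 2.99% lower), with a median of -1.58. In pregnant heifers alone 0 were called by limma (0.623% of all genes) and 14 had an unadjusted p under 0.05, with a median of -0.84. Of all 24016 probe sets 2028 had an unadjusted p under 0.05 in pregnant heifers alone. The difference between the statuses was itself tested, and 0 of 39 genes were called, where 0.0109% of all genes were called. In that test 1 mitosis gene had an unadjusted p under 0.05, as had 4658 of all probe sets. The median of that difference, pregnant minus cyclic, was 0.82 with a median 95% half-width of 1.25, which is wider than the difference.

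**Figure D4:**
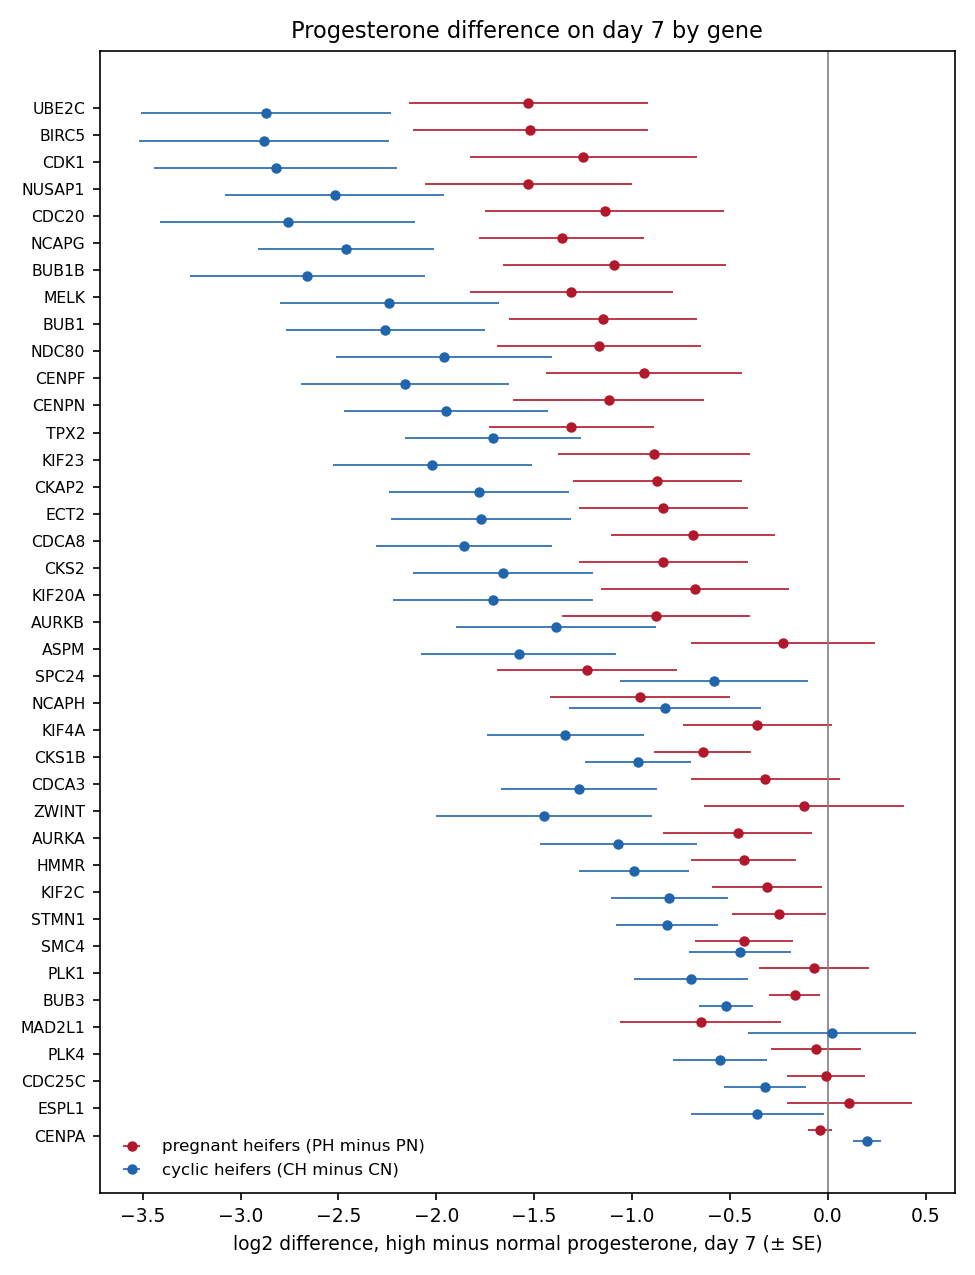
Log2 difference, high minus normal progesterone, on day 7 (points, bars ± SE of the fit) for the 39 mitosis genes in pregnant and in cyclic heifers, ordered by the average. Most estimates are below 0 in both statuses, from -2.88 to 0.20 in cyclic and from -1.53 to 0.11 in pregnant heifers.

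On days 5, 13 and 16 limma called no mitosis gene for progesterone. On day 5, after 2 days with the device, 0 genes were called (1.21% of all genes) and 0 had an unadjusted p under 0.05, with a median of 0.12. On day 13, 0 were called (0.634% of all genes), 2 had an unadjusted p under 0.05 and the median was 0.02. On day 16, 0 were called (0.0874%), with 0 at an unadjusted p under 0.05 and a median of 0.04. Of all 24016 probe sets 2613, 1636 and 2618 had an unadjusted p under 0.05 on days 5, 13 and 16. In limma fits of these days alone 0 were called as well, and 0, 3 and 6 genes had an unadjusted p under 0.05. In the same fits 2342, 1694 and 4099 of all probe sets had one. The median SE was then 0.381 on day 5, 0.0999 on day 13 and 0.0905 on day 16, against 0.304 in the fit of all days. On days 13 and 16, 17 to 19 of the 39 genes had a group mean under 3, where differences are understated. In the fit of all days the 95% interval lay within 1 on either side of 0 for 30, 36 and 37 genes on days 5, 13 and 16. With the larger SE of day 5 alone, the intervals of day 5 would be wider.

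The change of the progesterone difference between days was tested directly. It was lower on day 7 than on day 5 in 8 genes (1.25% of all genes called, 0.994% lower): NCAPG by -2.20 ± 0.43 (adjusted p = 0.00496), BIRC5, UBE2C, NUSAP1, CENPN, MELK, ECT2 and CKS1B. It was higher on day 13 than on day 7, meaning closer to 0 or above it, in 8 genes (1.92% of all genes called, 0.721% higher): CDK1 by 2.89 ± 0.59 (0.00298), NCAPG by 1.95 ± 0.43 (0.00601), UBE2C, BIRC5, NUSAP1, MELK, BUB1 and TPX2. Several of these were near the low end of the scale on day 13, where a lower level with progesterone could hardly show. BIRC5 lay between 2.37 and 2.54 and UBE2C between 2.43 and 2.92, and BUB1 and MELK averaged 2.77 and 2.89. CDK1 lay higher, between 4.03 and 6.55. In fits of the days concerned the counts were 0 (lowest adjusted p = 0.119, with 22 at an unadjusted p under 0.05) and 3 (lowest 0.0244). Of all 24016 probe sets these fits called 14 and 215, and in the first of them 2498 had an unadjusted p under 0.05. Without the arrays that stood apart the counts were 2 and 2. Single omitted arrays gave 2 to 18 and 4 to 18 (18 in both without CN 1 of day 7).

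None of the markers of other cells was called for progesterone on day 7 in any of the 8 lists by limma. The mean of the 9 macrophage markers lay between 5.71 and 6.89 with high progesterone and between 5.84 and 7.92 with normal progesterone, and averaged 6.13 ± 0.33 and 6.73 ± 0.67 (SD, n = 9 and 10), with a median gene difference of -0.49. The mean of the 5 leukocyte markers averaged 6.01 ± 0.36 with high and 6.46 ± 0.66 with normal progesterone. Epithelial markers averaged 7.74 ± 0.11 with high and 7.78 ± 0.15 with normal progesterone, and stroma markers 11.10 ± 0.13 and 11.10 ± 0.17. The part of the macrophage and leukocyte levels in the lower mitosis genes was not tested.

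No mitosis gene was called between pregnant and cyclic heifers on any day. By limma 0 genes were called on day 5 (0.0328% of all genes), 0 on day 7 (0%), 0 on day 13 (0%) and 0 on day 16 (4.13%), and 1, 2, 1 and 0 had an unadjusted p under 0.05. In limma fits of single days 0 were called as well, and 0, 1, 1 and 2 had an unadjusted p under 0.05. Of all 24016 probe sets 2370, 1878, 620 and 3241 had one in the fit of all days. In the fits of single days 2201, 843, 658 and 3145 had one. The medians, pregnant minus cyclic, were -0.15, -0.11, 0.01 and -0.02. In the fit of all days the 95% interval lay within 1 of 0 in 31, 29, 37 and 36 of the 39 genes. The median SE there was 0.304 on days 5, 13 and 16 and 0.313 on day 7. In fits of single days it was 0.381, 0.431, 0.0999 and 0.0905, so the intervals of days 5 and 7 are understated. The change of the pregnancy difference from day 13 to day 16 was called in 0 genes as well (1.23% of all genes).

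SPC24 (gene ID 509117), a subunit of the NDC80 complex of the kinetochore, took another course. Its lowest, median and highest values were 7.91, 9.51 and 10.85 on day 5, 7.65, 10.21 and 11.23 on day 7, 5.37, 6.98 and 8.20 on day 13, and 4.89, 5.71 and 6.97 on day 16. It rose by 0.64 ± 0.23 to day 7 (adjusted p = 0.0391), fell by 3.20 ± 0.23 to day 13 (6.84e-19), a 9.16-fold lower level, and fell by 1.06 ± 0.23 more to day 16 (0.00089). Its complex partner NDC80 had already fallen by 1.31 ± 0.26 to day 7.

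On day 7 SPC24 had 9.83, 9.62, 9.70, 9.91 and 8.59 in PH, against 11.23, 11.08, 10.56, 10.21 and 10.71 in PN, with all arrays of PH below all of PN, as for KIF2C (2 of 39 genes, against 4.42% of all genes), where the gap was between 2.20 in PH and 2.21 in PN at the low end of the scale. It had 10.35, 9.30, 9.48 and 9.43 in CH, against 11.07, 10.94, 10.79, 10.63 and 7.65 in CN, where array 5, one of those that stood apart, was far below the other 4 and below all of CH. The difference of -0.90 ± 0.33 was not called (adjusted p = 0.107). On day 13 SPC24 differed by -1.07 ± 0.32 between high and normal progesterone and was not called (0.145). SPC24 rests on 1 probe set.

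CENPA, the histone of the centromere, stayed between 2.35 and 3.19 on all days, at the low end of the scale. It was called lower from day 7 to day 13 in CH alone, where CH 3 of day 7, one of the arrays that stood apart, had the 3.19. MAD2L1, a checkpoint protein, averaged 6.77 ± 0.62, 5.70 ± 0.61, 5.66 ± 0.82 and 5.53 ± 0.66 on days 5, 7, 13 and 16, and was called lower on day 7 than on day 5 but not afterwards. ZWINT, a kinetochore scaffold protein, averaged 6.89 ± 0.64, 6.34 ± 0.87, 6.32 ± 0.92 and 6.25 ± 0.89 on these days and was called in none of the comparisons of successive days averaged over groups. BUB3 and HMMR moved little, by -0.38 and -0.36 to day 7 and by -0.17 ± 0.07 (called) and -0.23 ± 0.14 (not called) to day 13.

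**Figure D5:**
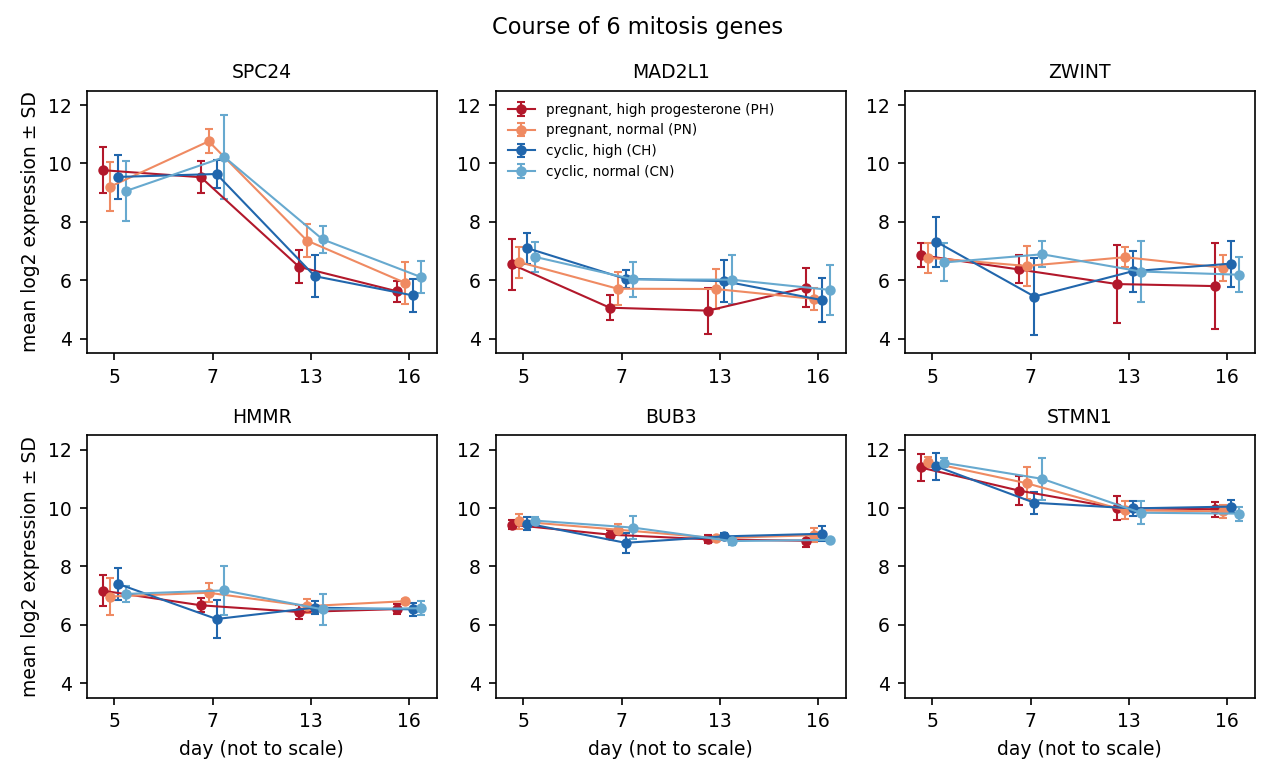
Mean log2 expression ± SD of 6 mitosis genes on days 5, 7, 13 and 16 (axis not to scale) in PH, PN, CH and CN (n = 5, 4 in CH on day 7); the genes were picked for the plot after their values were seen. SPC24 falls after day 7, MAD2L1 is lower from day 7 on, ZWINT, HMMR and BUB3 move little, and STMN1 declines to day 13.

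Probe sets of 1 gene did not always give the same call. From day 5 to day 7 BUB3, KIF2C, ASPM, ESPL1 and HMMR were called only on the probe set with the highest mean. HMMR had another with a mean of 5.55, which gave -0.21 ± 0.15 (adjusted p = 0.379). NCAPH and SMC4 were called on some of their probe sets and not on all in that comparison. For CDCA8, BUB1, BUB3, CENPF, NCAPH and ASPM the fall to day 13 was called on the probe set with the highest mean and on no other, and the others had means between 1.85 and 3.47. For HMMR the probe set with the highest mean was not called from day 7 to day 13, while one with a mean of 3.90 was, at -0.53 ± 0.13 (adjusted p = 0.00103). For progesterone on day 7 CDCA8, BUB1, BUB3, CENPF and KIF20A were called only on the probe set with the highest mean, and their others had means between 2.12 and 2.97. CKAP2 and HMMR were called on some of their probe sets and not on all. AURKB's other probe set narrowly missed the call for progesterone on day 7, at -0.77 ± 0.24 (0.0518). For TPX2, ECT2 and CENPN, both probe sets were called lower in the comparisons of day 7 with day 5, of day 13 with day 7, and of progesterone on day 7.

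The mitosis genes varied together from array to array. Over the 79 arrays the median Pearson correlation between 2 of them was 0.83, from -0.35 to 0.98 over 741 pairs, and it was 0.62 for deviations from the group means, so the genes also moved together among arrays of the same group. These arrays share the change over days and the array's own processing, and the values are given as a description. BUB1, BUB1B, NCAPG, BIRC5 and CDC20 had a correlation of 0.98 with the mean of the other members. The least alike were CENPA at -0.08, ZWINT at 0.40, CDC25C at 0.57, MAD2L1 at 0.61, and SPC24 and PLK4 at 0.63.

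Outside the list, the 10 genes whose values over the 79 arrays were most like the mean of the members had correlations of 0.95 to 0.98. They were SHCBP1, RRM2, DUT, TCF19, PCLAF, CDCA2, CCNB2, SKA3, SPAG5 and LMNB1. RRM2, the small subunit of ribonucleotide reductase, differed by -2.15 ± 0.44 with progesterone on day 7, and PCLAF, a PCNA-binding factor, by -2.12 ± 0.41.

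For the other cell cycle genes the shares over all genes were 28.9% called and 19.5% lower to day 7, 45.7% called and 26.2% lower to day 13, and 6.68% called and 4.52% lower with progesterone on day 7. Of 7 measured mitotic cyclins and transcription drivers, 4 fell and 1 rose to day 7, 2 fell to day 13, and CCNB2, a mitotic cyclin, was lower with progesterone on day 7 at -1.56 ± 0.42 (adjusted p = 0.0181). CCNB1, the main cyclin partner of CDK1, rose by 0.73 ± 0.21 to day 7 (0.00824) and fell by 1.74 ± 0.21 to day 13 and by 1.2 ± 0.21 more to day 16. With progesterone CCNB1 differed by -0.12 ± 0.31 on day 7 (0.88), -1.62 ± 0.30 on day 13 (0.00104) and -1.36 ± 0.30 on day 16 (0.0325). Of 18 measured DNA replication genes, 15 fell to day 7 and 7 were lower with progesterone on day 7, among them RRM2 and PCNA, the sliding clamp, at -0.59 ± 0.12. To day 13, 6 of these 18 fell and 5 rose, where 45.7% of all genes were called, GMNN, the inhibitor of replication licensing, by 1.13 ± 0.11 and RRM1, the large subunit of ribonucleotide reductase, by 0.62 ± 0.09.

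Of 9 measured brakes of the cycle, 1 fell and 1 rose to day 7, and 2 fell and 4 rose to day 13, where 45.7% of all genes were called. CDKN1A, the CDK inhibitor p21, rose by 1.54 ± 0.18 to day 13 (adjusted p = 2.79e-11), and CDKN1C, a relative of it, fell by 0.67 ± 0.17. With progesterone on day 7 only CCNG1, a cyclin induced by p53, was called, at 0.39 ± 0.12 (0.0402). Of 8 measured genes of G1 entry, 6 fell to day 7 (19.5% of all genes), 2 fell and 3 rose to day 13 (45.7% called), and CCNE2 and CDK2, a cyclin and kinase pair that starts replication, were lower with progesterone on day 7, at -1.08 ± 0.28 and -0.62 ± 0.15.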

How the data were processed

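Per the labels, total RNA was extracted from 300 mg strips of endometrium with Trizol, treated with DNase on a column, and 2 µg were made into biotin-labelled cRNA for Affymetrix bovine arrays. The deposited log2 values per probe set were made by the authors: RMA, GCRMA and limma were used per the submitters' processing notes, without versions, and which of RMA and GCRMA made the values is not given in the sources used here. The values were used as deposited. Of 24128 probe sets 112 controls were left out, and 24016 were tested with no filter on level. Names came from the platform annotation, in which 13292 probe sets had 1 symbol, 86 several and 10638 none; all 39 member gene IDs also stood in RefSeq's cattle gene table, with 0 changed symbols. No genome build is named, so no positions are given. Where a gene had several probe sets, the one of highest mean over all arrays stood for it.

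Group means of 16 groups over 79 arrays were fitted with limma 3.58.1 in R 4.3.3 (63 residual and 1.49 prior degrees of freedom), with Benjamini-Hochberg adjustment over all probe sets of a comparison and a threshold of 0.05. All adjusted p-values are limma's. Python 3.11.15, pandas 2.3.3 and matplotlib 3.10.9 served for tables and plots. The number of arrays limits the precision.

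Per-array values were given for the 2 members of each role with the highest mean; also named were the 8 largest falls from day 7 to day 13, the members called for progesterone, pregnancy or a difference of differences, members whose probe sets disagree, called genes of 4 further lists and the 10 genes most like the members. Other genes were named after their values were seen. The members, lists and comparisons were chosen with earlier results of these data known. Replicate numbers were not treated as pairs: within a day, the deviations of arrays with the same number correlated by 0.0294 on day 5, 0.0467 on day 7, 0.0228 on day 13 and -0.00919 on day 16, on average. Also tried were fitting only the days compared, quantile normalization, brighter probe sets only, any probe set of a gene, a replicate block, and the omission of arrays. The 2 statuses alone and the difference of the progesterone effect between them on day 7 were added after the data were seen.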

Additional observations from a re-analysis of the deposited data

Results flagged for a closer look

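Single arrays were compared with the rest of their group by Dixon's criterion, which flags about 1 group in 20 by chance. The mean of the 39 mitosis genes was flagged in 1 of 16 groups, in PH 4 of day 7, at 5.50, where the other 4 arrays lay between 3.96 and 4.39. Of 224 tests of the 14 genes given per array, 15 were flagged. On day 5 these were CN 5 for BUB3, at 9.81, and CN 1 for SPC24, at 10.85. On day 7 they were PH 5 for SPC24, at 8.59, CN 5 for SPC24, at 7.65 where the others had 10.63 to 11.07, and PH 4 for SMC4, at 6.24.

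The other 10 flags fell on days 13 and 16 and were small. On day 13 BIRC5 was 2.52 and CDC20 2.20 in PH 1, AURKB 2.48 in PN 1, and UBE2C 2.43 in CH 2. On day 16 NCAPG was 2.94 in CN 5 and UBE2C 2.43 in PH 2. CDC20 was 2.10 in PN 4 and 2.13 in CN 2 of day 16, ECT2 was 5.80 in PH 2 and KIF23 4.29 in PH 5. For BIRC5, AURKB, UBE2C and CDC20 these values lie at the low end of the scale.

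In the fit of all days, the difference between high and normal progesterone changed between days in 8 genes each by the test of that change. Day 7 minus day 5, it was -2.46 in BIRC5, -2.36 in UBE2C, -2.25 in NUSAP1, -2.20 in NCAPG, -2.17 in CENPN, -2.03 in MELK, -1.76 in ECT2 and -0.98 in CKS1B. Day 13 minus day 7, it was 2.89 in CDK1, 2.29 in UBE2C, 2.22 in BIRC5, 2.19 in NUSAP1, 1.99 in MELK, 1.95 in NCAPG, 1.76 in BUB1 and 1.70 in TPX2. The same day 7 arrays enter both changes. On day 13 BIRC5 lay between 2.37 and 2.54 and UBE2C between 2.43 and 2.92, near the low end of the scale, where a lower level with progesterone could hardly show. In fits of the days concerned 0 of the first 8 and 3 of the second 8 calls remained, and without the arrays that stood apart 1 and 2 remained.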

How the results depend on the processing

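For 23 comparisons 163 alternative counts of called mitosis genes were computed, single arrays aside. Of these, 138 lay within 1.5 times the reported count and 25 moved further. The 138 include comparisons with a reported count of 0, where an alternative of 0 was taken as the same. They therefore overstate how steady the comparisons with called genes were. Quantile normalization moved no count beyond 1.5 times. With brighter probe sets only, 14 of the 39 genes were tested, and the counts were 10 from day 7 to day 13, 13 from day 5 to day 7, 10 in CN and 8 in PN from day 7 to day 13, 12 in CH, 2 in PN and 10 in PH from day 5 to day 7, 10 for progesterone on day 7 and 4 for its change to day 13. With only the days concerned in the fit, the counts were 1 in CH from day 7 to day 13, 0 in PN and 6 in PH from day 5 to day 7, 0 for progesterone on day 7, 0 for its change from day 5 and 3 for its change to day 13. In the same order, these fits called 4554, 365, 556, 223, 14 and 215 of all probe sets. Without the arrays that stood apart the mitosis gene counts were 2 in CN and 11 in PN from day 5 to day 7. They were 15 for progesterone on day 7, 1 on day 13, and 2 for each change of the progesterone difference. Without the arrays high in smooth muscle or B cell markers they were 14 in PN from day 5 to day 7 and 1 for the change of the progesterone difference from day 5 to day 7. Counting any probe set gave 11 in PN from day 5 to day 7. Pregnant heifers alone, added after the data were seen, gave 0 for progesterone on day 7. Why these counts moved was not tested, beyond the fewer genes or arrays that some used.

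With the replicate number as a block (replicate block) the counts were 29 from day 7 to day 13, 36 from day 5 to day 7 and 24 for progesterone on day 7, and no count moved beyond 1.5 times. The difference of CENPA in CH from day 7 to day 13 turned to 0.01 without the arrays that stood apart, and ranged from -0.27 to 0.01 over single omissions, the highest without CH 3 of day 7.

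Leaving out single arrays gave 33 to 37 called genes from day 5 to day 7 and 27 to 33 from day 7 to day 13. From day 5 to day 7 the ranges were 0 to 2 in CN (2 without CN 5 of day 7), 31 to 36 in CH, 1 to 14 in PN (9 of 10 omissions moved it by over 1.5 times, with 14 without PN 4 of day 5 and 1 without PN 1, PN 2 or PN 3 of day 7) and 11 to 28 in PH (11 without PH 3 of day 7, 14 without PH 3 of day 5). From day 7 to day 13 they were 27 to 34 in CN, 1 to 3 in CH (1 without CH 3 of day 13), 12 to 22 in PN (12 without PN 5 and 13 without PN 4 of day 7) and 2 to 8 in PH (2 without PH 4 of day 7). For progesterone on day 7 the range was 18 to 30. For its change from day 5 it was 2 to 18, with 18 without CN 1 of day 7 and 2 without PN 4 of day 5 or CH 5 of day 7, and for its change to day 13 it was 4 to 18, with 18 without CN 1 and 13 without PH 4 of day 7. Of 39 omissions each, 17 and 13 moved these counts by over 1.5 times. The difference between statuses gave 0 to 1, day 16 against day 13 gave 1 each time, and the other comparisons gave 0 each time.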
